A study of Mus musculus with 12 samples.

Results

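The replication-dependent histone genes are the clustered, mostly single-exon genes that code for the core histones H2A, H2B, H3 and H4 and the linker histones H1. They were taken as the protein-coding rows with a symbol starting in Hist1h, Hist2h, Hist3h or Hist4h and at least 10 counts summed over 12 mouse liver libraries, which gave 55 members of 67 such rows, in a table of 55421 genes. By class there were 5 H1, 13 H2A, 15 H2B, 11 H3 and 11 H4 members. Of the 55, 46 passed the low-count filter of the test, and the other 9 are described by their levels.

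The libraries held total RNA, depleted of ribosomal RNA, from livers of wild-type (WT) mice on day 21 after implantation of E0771 cells, a mouse mammary carcinoma line, in the mammary fat pad. All mice carried the tumour, so the data hold no tumour-free liver. The groups differed in housing temperature, with acclimatisation for 1 week: 6 °C (libraries 1 to 4), 22 °C (libraries 5 to 8) and 29 °C (libraries 9 to 12), 4 libraries each. Whether each library came from a separate animal is not stated, so a p-value reflects only how far these libraries spread, which may be technical. The protocol names both Balb/C and C57Bl6/J mice and does not tie either to a library.

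As background, these genes are transcribed mainly while DNA is copied, under the coactivator NPAT, so that new chromatin can be packaged. Most of their messenger RNAs end not in a poly(A) tail but in a short stem-loop bound by SLBP, and are broken down when DNA synthesis stops. Some members are also made with a poly(A) tail in cells that have stopped dividing, and adult hepatocytes rarely divide. Total RNA libraries can capture both forms.

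Total counts lay between 7615585 and 19001126 per library, so 3 counts correspond to 0.158 to 0.394 CPM (counts scaled by library size), for counting error only. Below, CPM of single genes uses TMM-scaled library sizes and is given by library or as mean ± SD over 4 libraries, and summed levels use CPM of the total count. Libraries 1 (6 °C), 7 and 8 (22 °C) and 9 (29 °C) stood apart: they held 11.8 to 17.1 CPM of H2-Ea-ps, a class II gene annotated as a pseudogene, and the other 8 held 0 counts of it. Each comparison is therefore also given with this split as a term in the fit, and in the 8 libraries without it. Libraries 3, 5 and 6 held under 2% of counts in Gm26917 and the other 9 held at least 4.03%. Summed hepatocyte markers (8 of 8 detected) ran from 8.60e+04 to 1.76e+05 CPM (Tat was called lower at 29 °C than at 6 °C), and of 5 mammary epithelial markers Krt5, Csn2 and Wap had 0 counts in every library.

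The stem-loop that ends these messages was searched for in the annotated transcripts of GENCODE vM21 (GRCm38) by its consensus of 16 letters, the SLBP binding site. It was found in 37 of 55 members (67.3%) and in 99 of 21901 protein-coding genes (0.452%). The lines below show it in capitals with its flanks, read 5′ to 3′ as DNA, for 1 member of H1, H2A, H2B and H3 and 2 of H4, because the H4 members carry other letters than the remaining classes.
Hist1h1c: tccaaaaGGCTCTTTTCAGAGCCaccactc
Hist2h2ac: ccaaaaaGGCTCTTTTTAGAGCCaccaaat
Hist1h2bb: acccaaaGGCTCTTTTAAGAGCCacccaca
Hist1h3b: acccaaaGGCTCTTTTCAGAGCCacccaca
Hist1h4d: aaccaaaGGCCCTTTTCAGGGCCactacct
Hist1h4b: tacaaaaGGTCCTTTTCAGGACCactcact
The letters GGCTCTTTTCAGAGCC were the most frequent, in 20 members of the classes H1, H2A, H2B and H3. No H4 member carried them: 5 H4 members carried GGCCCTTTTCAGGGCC, 2 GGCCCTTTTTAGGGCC, 2 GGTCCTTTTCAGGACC and 1 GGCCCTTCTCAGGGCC. The 18 members without a match include Hist1h1a, Hist1h1b, Hist1h2ak, Hist1h2bc and Hist2h2be. Some are annotated with little beyond the coding sequence, such as Hist1h2ak with 393 bases, and no match says only that the letters are not in the annotated transcript. A poly(A) hexamer, AATAAA or its common variant ATTAAA, lay in the last 60 bases of the annotated transcript in 12 of 55 members (21.8%), 6 of them H4, against 78.7% of protein-coding genes.

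H2A and H2B genes often lie head to head and share the interval between their starts. Of 12 such pairs among the 67 rows, 4 had both genes tested, and the 2 of these in which the genes had log2 fold changes of opposite sign between 29 °C and 6 °C are printed, together with the promoters of the linker genes Hist1h1a and Hist1h1b, which had the lowest p among H1 members. Sequences are from the RefSeq promoter table (GRCm38.p6). Capitals mark 4 motifs, each searched on both strands of a window: the octamer ATGCAAAT, the element CCAAT (on the other strand ATTGG), the element TATAAA and the H1 box AAACACA. The letters of no motif lie within those of another.
Hist2h2ac and Hist2h2be, shared interval, chr3:96220881-96221118, minus strand: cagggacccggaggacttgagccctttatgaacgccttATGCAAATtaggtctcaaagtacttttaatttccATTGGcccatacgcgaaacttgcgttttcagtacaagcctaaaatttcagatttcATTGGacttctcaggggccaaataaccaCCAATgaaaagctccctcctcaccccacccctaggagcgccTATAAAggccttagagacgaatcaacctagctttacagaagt
Hist1h2ac and Hist1h2bc, shared interval, chr13:23683960-23684198, minus strand: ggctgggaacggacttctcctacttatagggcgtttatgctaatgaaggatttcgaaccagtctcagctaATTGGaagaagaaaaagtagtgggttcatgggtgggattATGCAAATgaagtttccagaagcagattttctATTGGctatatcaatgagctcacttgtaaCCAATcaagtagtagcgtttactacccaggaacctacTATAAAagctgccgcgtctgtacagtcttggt
Hist1h1a, 250 bases before the start, chr13:23763418-23763667, plus strand: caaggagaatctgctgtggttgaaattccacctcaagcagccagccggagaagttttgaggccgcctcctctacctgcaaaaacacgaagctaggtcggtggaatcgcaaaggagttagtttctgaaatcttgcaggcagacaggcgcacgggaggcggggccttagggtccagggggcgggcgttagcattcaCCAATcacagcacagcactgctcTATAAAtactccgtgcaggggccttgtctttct
Hist1h1b, 250 bases before the start, chr13:21780626-21780875, minus strand: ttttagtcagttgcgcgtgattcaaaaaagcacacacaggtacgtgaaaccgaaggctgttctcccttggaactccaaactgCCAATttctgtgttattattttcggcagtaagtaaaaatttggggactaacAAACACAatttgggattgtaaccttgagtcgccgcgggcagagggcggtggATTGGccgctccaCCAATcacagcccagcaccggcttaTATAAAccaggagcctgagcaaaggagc
Both intervals hold an octamer, CCAAT on both strands, and TATAAA at the end that starts the H2A gene. RefSeq windows of 300 bases (250 before and 50 after the start) were matched for 50 of 55 members. The octamer, the site of OCT1 and a known element of H2B promoters, was in 12 of 50 (24%): 6 of 13 H2A, 6 of 13 H2B and 0 of the 5 H1, 9 H3 and 10 H4 windows, against 1.74% of 32817 windows of all genes. CCAAT was in 43 of 50 member windows (86%, against 37.4% of all), and the exceptions were H4 genes, of which 3 of 10 held it. TATAAA was in 30 of 50 (60%, against 13.6%). The H1 box was in 4 of 5 H1 windows (80%), in 7 of the 50 member windows in all (14%), and in 7.19% of all windows. A match describes letters and is not a bound site.

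By position, 16 members lay in the proximal and 29 in the distal part of the Hist1 cluster on chromosome 13, 7 in the Hist2 cluster on chromosome 3, 2 in Hist3 on chromosome 11 and 1, Hist4h4, on chromosome 6. Of the 55, 53 are annotated with 1 exon. The genes are near copies of one another: a median of 56.2% of the 50-base stretches of a member occurred in no other gene outside its locus, and 22 members had under 50% unique. How reads that match several copies were counted is not given in the sources used here, so values of those 22 are uncertain between copies. Of the 12 rows outside the rule, 9 had 0 counts, among them both Hist2h2aa genes, and their median unique share was 10.8%. Just inside the rule were Hist1h2ba (10 counts), Hist1h2ai (20) and Hist1h2ad (22), and just outside were Hist1h1t (5), Hist1h2aa (4) and Hist1h2bp (2); Hist1h1t, Hist1h2aa and Hist1h2ba are known as testis forms.

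Summed over all 55 members, the level was 292.7, 342.7, 300.6 and 320.6 CPM in the 6 °C libraries, 238.5, 263.3, 587.2 and 421.5 CPM at 22 °C and 805.3, 467.5, 490.1 and 315.8 CPM at 29 °C. The means were 314.2 ± 22.4, 377.6 ± 161.5 and 519.7 ± 205.5 CPM (SD, n = 4 each). The 6 °C libraries were close together, the 22 °C libraries fell into a low pair (5 and 6) and a high pair (7 and 8), and library 9 was the highest. At 29 °C, 3 of 4 libraries lay above each 6 °C library and library 12 lay among them. Hist1h1c and Hist1h1e gave 29.3% of the mean level, and with Hist1h2bc and Hist1h4d these 4 members gave 48.5%. Without Hist1h1c the means were 255.3 ± 10.7, 324.3 ± 135.5 and 442.6 ± 169.7 CPM. Fewer cells of a type and less RNA per cell cannot be told apart in bulk RNA.

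**Figure D1:**
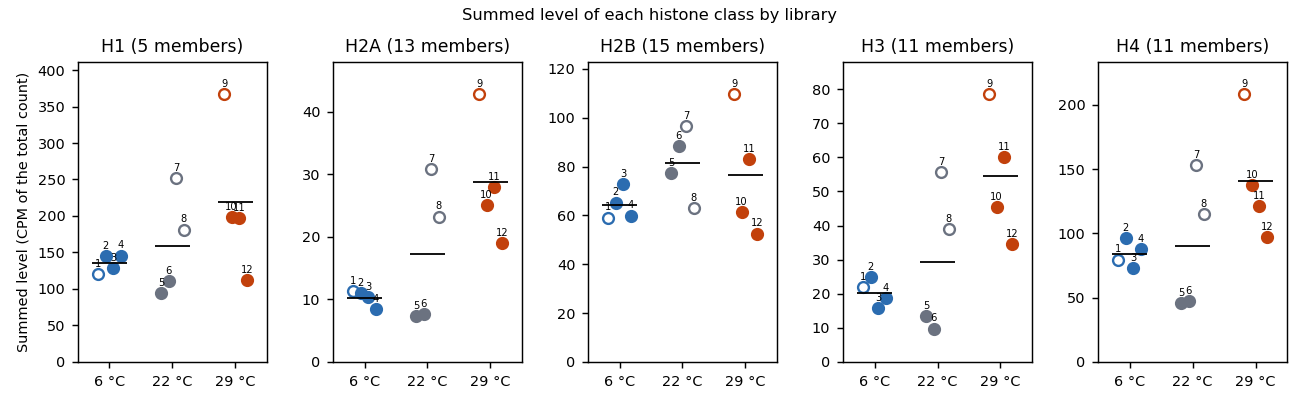
Summed level of the members of each histone class (vertical axis, CPM of the total count, from 0) at each housing temperature, with the library number above each point and a line at the mean of 4 libraries. Open points are libraries 1, 7, 8 and 9, which hold H2-Ea-ps counts. The H2A and H3 points at 29 °C all lie above the 6 °C points, and the H2B points of libraries 5 and 6 are not low.

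The classes differed in whether their summed levels overlapped between 29 °C and 6 °C. H2A members summed to 8.44 to 11.4 CPM at 6 °C and 19.1 to 42.8 CPM at 29 °C, and H3 members to 15.8 to 25.0 against 34.6 to 78.5 CPM, with no overlap between these 2 groups of libraries. H4 members ran from 73.2 to 96.3 CPM at 6 °C and from 97.2 to 208 CPM at 29 °C, also without overlap. H1 members ran from 120.6 to 145.6 against 112.4 to 366.5 CPM, and H2B members from 59.1 to 72.8 against 52.6 to 109.5 CPM, and both overlapped. Much of the H2B sum came from 1 gene, Hist1h2bc, with 44.9 ± 14.9 CPM (TMM-scaled) at 6 °C and 23.0 ± 4.60 CPM at 29 °C. The H2B sums had means of 64.25 and 76.65 CPM at these temperatures. The share of H2B in the summed level was 32.5% and 33.5% in libraries 5 and 6 and between 13.1% and 24.2% in the other 10. Hist1h2bc stood at 73.1 and 80.3 CPM (TMM-scaled) in libraries 5 and 6, where H2B members summed to 77.4 and 88.3 CPM of the total count. The share of H3 was 3.71% to 7.53% in libraries 1 to 6 and 9.23% to 12.3% in libraries 7 to 12.

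**Figure D2:**
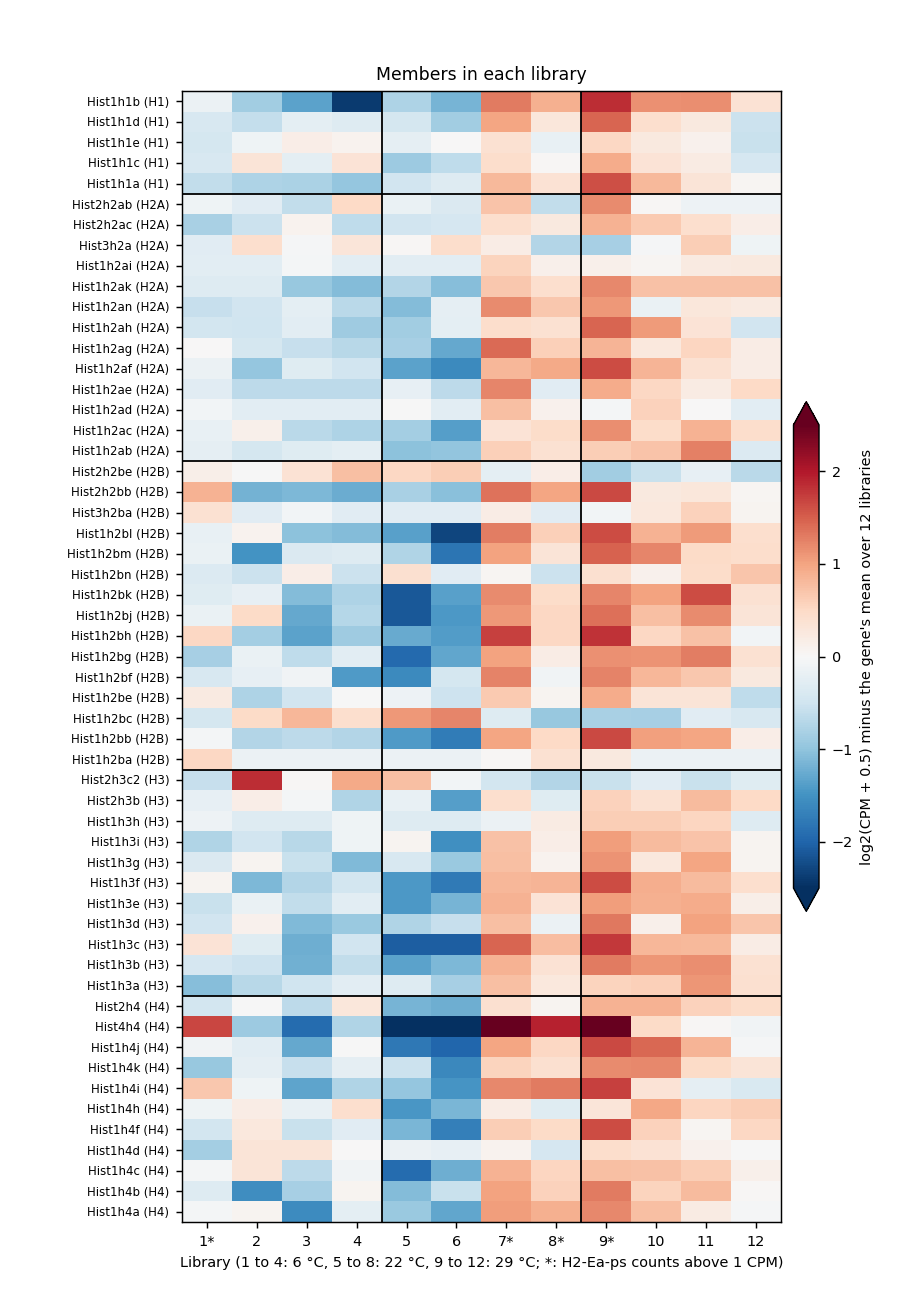
Each of the 55 members (rows, by class and position) in each library (columns), coloured by log2(CPM + 0.5) minus the mean of that gene over 12 libraries; the colour scale stops at 2.5 in either direction. Libraries 5 and 6 are mostly blue and libraries 7 to 11 mostly red, and the rows of Hist1h2bc, Hist2h2be and Hist2h3c2 run the other way.

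The comparison of 29 °C with 6 °C asks how the liver differs between warm and cold housing. Hist1h1a, a linker histone of dividing cells, and the H2A gene Hist1h2ak were higher at 29 °C, and no member was called lower. Most other members leaned the same way without passing the test: 43 of the 46 tested had a positive log2 fold change, as did 50.1% of all genes, with a median of 1.47, where the median of all 15006 genes tested was 0.00. This count of signs depends in part on the low-count filter. Hist1h2ah and Hist1h2ag, at most 0.397 and 0.720 CPM at 6 °C, passed it through warmer libraries. Hist2h3c2, with a mean of 1.22 CPM at 6 °C and 0.215 CPM at 29 °C, did not pass it. At an adjusted p under 0.05 (edgeR's quasi-likelihood test, Benjamini-Hochberg over all genes) 2 of 46 members were called, and the share called among all genes was 2.53% (1.13% higher and 1.39% lower), so this count is near the background. The groups did not overlap, with 29 °C higher, in 23 members (50%) against 6.56% of all genes, and with 29 °C lower in 1 member (2.17%) against 6.74%. At an unadjusted p under 0.05 there were 24 members higher (9.80% of all genes) and 2 lower (9.61% of all genes).

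With the split term 19 members were called higher and 2 lower, against 6.32% and 6.23% of all genes, and without library 11 in that fit 11 members were called, against 8.58% of all genes in both directions. In the 8 libraries without H2-Ea-ps counts 14 members were called higher and 2 lower (4.93% and 4.98% of all genes). The 2 lower were Hist1h2bc and Hist2h3c2, and Hist2h3c2 did not pass the filter over all 12 libraries. DESeq2 called 9 higher and 1 lower (3.89% and 4.08% of all genes), and limma voom 6 higher and 0 lower (3.39% and 4.01%). The 2 calls of the first test depended on single libraries: 0 members were called without any 1 of libraries 1, 2, 3, 4, 9, 10 or 11, where 0.269% to 1.97% of all genes were called. Leaving out library 8 gave 1 member (2.14% of all genes), library 12 gave 1 (0.977%), library 5 gave 3 (2.04%), library 6 gave 4 (2.32%) and library 7 gave 5 (2.89%). The median log2 fold change stayed between 1.235 and 1.624 when each library was left out in turn.

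**Figure D3:**
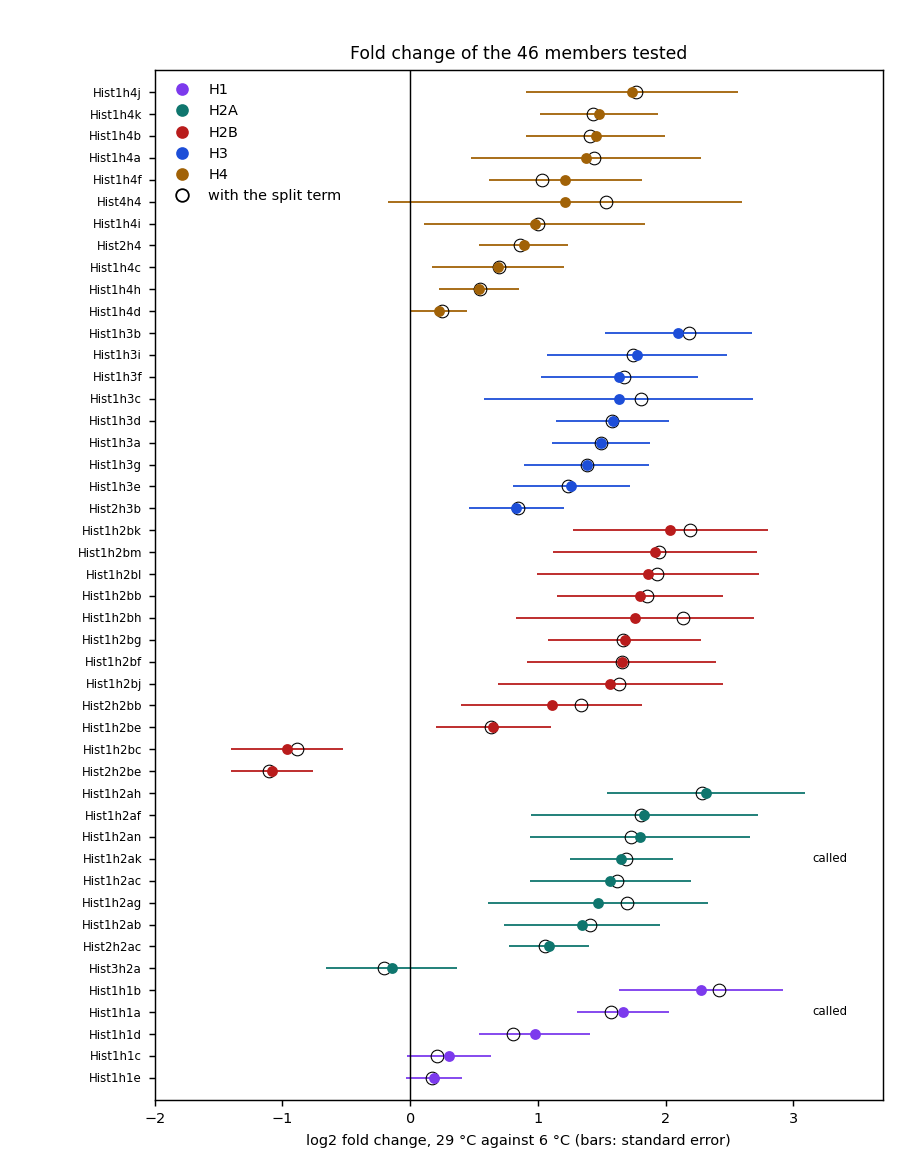
The log2 fold change of 29 °C against 6 °C (horizontal axis) of the 46 members tested, ordered within class, with its standard error from edgeR as a bar and the value with the split term as an open circle. Hist1h1a and Hist1h2ak are marked as called, 43 members lie right of 0, and Hist1h2bc, Hist2h2be and Hist3h2a lie left of it.

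Linker histones H1 bind the DNA between nucleosomes. Hist1h1a (chr13:23763666-23764406, plus strand) stood at 7.63, 6.78, 6.67 and 5.86 CPM at 6 °C (libraries 1 to 4), 8.398, 9.47, 21.2 and 15.5 CPM at 22 °C (libraries 5 to 8) and 37.6, 21.2, 14.9 and 12.3 CPM at 29 °C (libraries 9 to 12). The 4 libraries at 6 °C were the lowest 4 of the 12, and libraries 7 to 12 were all above libraries 1 to 6. It rose at 29 °C over 6 °C (a log2 change of 1.67 with SE 0.36, adjusted p = 0.0343), and by 1.58 (adjusted p = 0.000986) with the split term. The adjusted p ranged from 0.000472 to 0.102 over the alternatives, and the call was lost without library 1, 2, 3, 4, 9, 10 or 11 (adjusted p = 0.0528 to 0.102) and without the libraries low in Gm26917 (adjusted p = 0.0679).

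Hist1h1b (chr13:21779883-21780625, minus strand), the other linker gene known for its tie to dividing cells, had 11.02, 6.51, 4.53 and 1.92 CPM at 6 °C, 6.92, 5.19, 30.8 and 23.2 CPM at 22 °C and 45.6, 27.6, 27.9 and 15.8 CPM at 29 °C. Its groups at 6 °C and 29 °C did not overlap, libraries 5 and 6 lay with the cold libraries and libraries 7 and 8 with the warm ones. The difference between 29 °C and 6 °C did not pass (a log2 change of 2.28 with SE 0.64, adjusted p = 0.08495) and passed with the split term at 2.42 (adjusted p = 0.00157). Of its 50-base stretches 100% were unique. Hist1h1c, the linker with the highest level of any member per kilobase of annotated exon (39.8 CPM per kilobase), had 44.1, 72.97, 49.02 and 74.3 CPM at 6 °C, 30.9, 37.3, 79.9 and 59.7 CPM at 22 °C and 111, 74.5, 67.3 and 43.7 CPM at 29 °C. Its groups overlapped (a log2 change of 0.30 with SE 0.33, adjusted p = 0.662). Hist1h1e, second in the class at 28.1 CPM per kilobase, stood at 51.1 ± 9.31 CPM at 6 °C, 53.6 ± 10.8 CPM at 22 °C and 58.2 ± 17.01 CPM at 29 °C and overlapped too (a log2 change of 0.19 with SE 0.22, adjusted p = 0.694). Of the 5 H1 members 5 had positive values, from 0.19 to 2.28 with a median of 0.97, and the 2 with the highest levels per kilobase had the 2 smallest.

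H2A pairs with H2B in the nucleosome. Hist1h2ak (chr13:21753435-21753827, minus strand), the H2A member with the highest level per kilobase (13.8), had 3.601, 3.59, 2.15 and 1.92 CPM at 6 °C (libraries 1 to 4), 2.58, 1.94, 7.66 and 6.35 CPM at 22 °C (libraries 5 to 8) and 11.3, 8.02, 8 and 7.997 CPM at 29 °C (libraries 9 to 12). Every 29 °C library was above every library of the other temperatures, and libraries 7 and 8 were above 1 to 6. It rose at 29 °C over 6 °C (a log2 change of 1.65 with SE 0.40, adjusted p = 0.0469), and by 1.69 (adjusted p = 0.00206) with the split term, with a range of adjusted p from 0.00206 to 0.134 over the alternatives. The call was lost with upper-quartile factors (adjusted p = 0.0506) and without any 1 of libraries 1, 2, 3, 4, 8, 9, 10, 11 or 12 (adjusted p = 0.0545 to 0.134). Of its 50-base stretches 47.7% were unique, and Gm44454 overlaps it on the opposite strand, so reads of these cannot be assigned to it alone where strand or copies were not resolved.

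Hist2h2ac, second in the class at 8.88 CPM per kilobase, had 2.23, 2.79, 4.61 and 2.59 CPM at 6 °C, 2.95, 3.06, 5.94 and 5.15 CPM at 22 °C and 8.26, 7.05, 5.89 and 4.88 CPM at 29 °C. Its 6 °C and 29 °C groups did not overlap (a log2 change of 1.09 with SE 0.32, adjusted p = 0.0812; with the split term 1.06, adjusted p = 0.0276). Of 13 H2A members 9 were tested, 8 of them positive, with a median of 1.57, and the largest value was 2.32 in Hist1h2ah. Hist3h2a was the exception, with a negative value (a log2 change of -0.15 with SE 0.52, adjusted p = 0.916) at 1.21 ± 0.365 CPM at 6 °C, 1.116 ± 0.495 CPM at 22 °C and 1.07 ± 0.631 CPM at 29 °C. Its locus overlaps Trim17 on the same strand, so reads in the overlap may not be its own. Hist1h2ad, Hist1h2ae, Hist1h2ai and Hist2h2ab were below the filter, with at most 68 counts in all libraries together. The other members below it were the H2B genes Hist3h2ba (23 counts), Hist1h2bn (46) and Hist1h2ba (10) and the H3 genes Hist1h3h (28) and Hist2h3c2 (80).

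Among H2B members, 2 of the 12 tested had negative values, and with Hist3h2a these were the only negative values in any class. Hist1h2bc (chr13:23684199-23692908, plus strand), the H2B member with the highest level per kilobase (33.9), had 25.2, 47.6, 61.3 and 45.6 CPM at 6 °C (libraries 1 to 4), 73.1, 80.3, 27.3 and 17.5 CPM at 22 °C (libraries 5 to 8) and 19.2, 18.99, 27.98 and 25.9 CPM at 29 °C (libraries 9 to 12). Libraries 5 and 6 were the highest and library 8 the lowest, in contrast to most members, and library 1 was below the other cold libraries and within the warm range. The difference between 29 °C and 6 °C did not pass (a log2 change of -0.96 with SE 0.44, adjusted p = 0.257), and passed with the split term (-0.89, adjusted p = 0.0351) and in the 8 libraries without H2-Ea-ps counts (-1.08, adjusted p = 0.00228). Hist1h2bc shares 50-base stretches with 220 other genes, although 69.4% of its own are unique, and it is 1 of 2 members with more than 1 annotated exon.

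Hist2h2be (chr3:96221119-96223738, plus strand), which codes for an H2B form known from olfactory neurons, had 3.03, 2.66, 3.58 and 4.85 CPM at 6 °C (libraries 1 to 4), 4.06, 4.38, 2.17 and 3.06 CPM at 22 °C (libraries 5 to 8) and 1.24, 1.65, 2.26 and 1.49 CPM at 29 °C (libraries 9 to 12). All 29 °C libraries were below all 6 °C libraries, and this was the only member with that order. The difference did not pass (a log2 change of -1.08 with SE 0.32, adjusted p = 0.0877) and passed with the split term at -1.10 (adjusted p = 0.0199) and in DESeq2 (-1.09, adjusted p = 0.0306). All of its 50-base stretches are unique, and its annotated transcript of 2620 bases ends near a poly(A) hexamer. Without Hist1h2bc and Hist2h2be the summed level of the other 53 members was 267.0 ± 22.4 CPM at 6 °C, 326.5 ± 185.9 CPM at 22 °C and 494.7 ± 206.4 CPM at 29 °C, and libraries 5 and 6 stood at 168.7 and 182.2 CPM.

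The other 10 H2B members tested were positive, from 0.65 (Hist1h2be) to 2.04 (Hist1h2bk), and the median over the 12 H2B members tested was 1.67. Hist2h2bb, second in the class at 22.6 CPM per kilobase, had 12.5, 2.66, 2.78 and 2.51 CPM at 6 °C, 3.599, 2.95, 17.7 and 13.6 CPM at 22 °C and 21.99, 7.904, 8.15 and 6.85 CPM at 29 °C. Libraries 1, 7, 8 and 9, the ones with H2-Ea-ps counts, held its 4 highest values. Gm42743 overlaps Hist2h2bb on the same strand and Gm20628 on the opposite strand, so reads in the overlap may not be its own. The difference between 29 °C and 6 °C was not called (a log2 change of 1.11 with SE 0.71, adjusted p = 0.424), and with the split term it was 1.34 (adjusted p = 0.00157). Hist1h2bb also had library 1 highest within 6 °C, by a smaller margin, at 2.45, 1.33, 1.43 and 1.34 CPM at 6 °C, 0.646, 0.407, 5.56 and 3.81 CPM at 22 °C and 9.03, 5.69, 5.54 and 2.91 CPM at 29 °C. Hist1h2be shares its locus and strand with Hist1h1e, so its reads cannot be told apart from those of Hist1h1e in the overlap.

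H3 carries most of the well-known histone tail marks. All 9 H3 members tested were positive, from 0.83 (Hist2h3b) to 2.10 (Hist1h3b), with a median of 1.59. Hist1h3b had 1.296, 1.196, 0.556 and 1.09 CPM at 6 °C, 0.461, 0.611, 3.895 and 2.61 CPM at 22 °C and 5.48, 4.72, 4.93 and 2.64 CPM at 29 °C. Every 29 °C library was above every 6 °C library, and libraries 5 and 6 were at or under 0.611 CPM (a log2 change of 2.10 with SE 0.58, adjusted p = 0.0687; with the split term 2.18, adjusted p = 0.00555). Hist1h3a came nearest to the threshold among the members not called (a log2 change of 1.495 with SE 0.39, adjusted p = 0.0575), at 1.88 ± 0.543 CPM at 6 °C, 3.34 ± 1.79 CPM at 22 °C and 5.31 ± 1.32 CPM at 29 °C. Hist1h3e had the highest level of the class per kilobase (9.51), with 5.09 ± 0.835 CPM at 6 °C, 6.62 ± 5.06 CPM at 22 °C and 12.2 ± 3.103 CPM at 29 °C, and Hist2h3b was second (8.28), with 3.25 ± 0.942 CPM at 6 °C, 3.11 ± 1.66 CPM at 22 °C and 5.76 ± 0.733 CPM at 29 °C. Hist2h3c2 was below the filter and had 0.144, 2.92, 0.477 and 1.34 CPM at 6 °C, 1.11, 0.407, 0.192 and 0.0747 CPM at 22 °C and 0.154, 0.284, 0.151 and 0.271 CPM at 29 °C. Its 4 highest libraries were 2, 4, 5 and 3, and in the 8 libraries without H2-Ea-ps counts, where it passed the filter, it was called lower at 29 °C than at 6 °C (-2.66, adjusted p = 0.0439).

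H4 is the most conserved core histone. All 11 H4 members were tested and positive, from 0.22 (Hist1h4d) to 1.74 (Hist1h4j), with a median of 1.21, and 0 were called by edgeR (2 with the split term, Hist1h4b and Hist1h4k, and 1 by DESeq2, Hist1h4k). Hist1h4d, the highest of the class per kilobase (32.7), stood at 36.7 ± 12.01 CPM at 6 °C, 32.2 ± 4.75 CPM at 22 °C and 42.8 ± 6.303 CPM at 29 °C, and its groups overlapped. Hist1h4h, second at 28.9 CPM per kilobase, had 11.4, 13.96, 10.8 and 16.7 CPM at 6 °C, 4.15, 5.296, 14.1 and 9.93 CPM at 22 °C and 15.3, 24.3, 17.96 and 18.98 CPM at 29 °C. Its libraries 5 and 6 were the lowest of all. Hist4h4, the only member on chromosome 6, had 15.1, 2.13, 0.795 and 2.43 CPM at 6 °C, 0.185, 0.102, 28.99 and 18.1 CPM at 22 °C and 33.8, 6.37, 4.48 and 4.13 CPM at 29 °C. Library 1 stood far above the other cold libraries, and libraries 7 and 8 far above libraries 5 and 6. The 4 libraries with H2-Ea-ps counts had its 4 highest levels, and the difference between 29 °C and 6 °C was 1.21 (SE 1.39).

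The 4 head-to-head pairs in which both genes were tested did not all move as units. In Hist1h2ah with Hist1h2bk the log2 fold changes of 29 °C against 6 °C were 2.32 and 2.04, and in Hist1h2ag with Hist1h2bj they were 1.47 and 1.57. In Hist1h2ac with Hist1h2bc they were 1.57 and -0.96, and in Hist2h2ac with Hist2h2be 1.09 and -1.08. These are the pairs whose shared intervals are printed above. The count ratio of Hist2h2ac to Hist2h2be (0.5 added to each count) was 0.54 to 1.29 at 6 °C, 0.70 and 0.73 in libraries 6 and 5, 2.71 and 1.68 in libraries 7 and 8, and 2.58 to 6.52 at 29 °C. The ratio of Hist1h2ac to Hist1h2bc was 0.0084 to 0.0357 at 6 °C, 0.0019 to 0.0960 at 22 °C and 0.0641 to 0.158 at 29 °C. These 2 pairs were picked for the opposite signs, so the shift of their ratios between 29 °C and 6 °C follows from the choice. The ratio of Hist1h2ah to Hist1h2bk was 0.120 to 0.579 at 6 °C and 0.106 to 0.448 at 29 °C, and that of Hist1h2ag to Hist1h2bj 0.180 to 0.818 at 6 °C and 0.288 to 0.403 at 29 °C, and in both the groups overlapped. Hist1h2ac had 0.864, 1.196, 0.477 and 0.418 CPM at 6 °C, 0.369, 0.102, 1.47 and 1.64 CPM at 22 °C and 3.01, 1.65, 2.37 and 1.63 CPM at 29 °C, and its 50-base stretches are 88.4% unique.

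**Figure D4:**
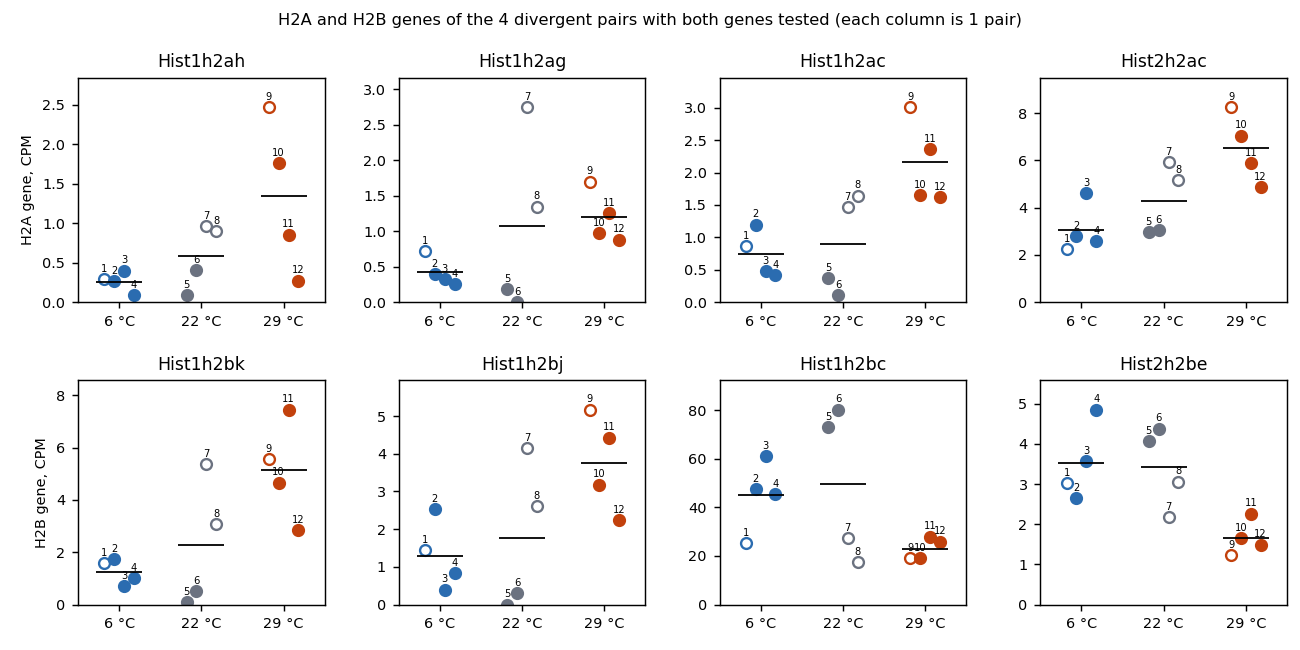
Level (vertical axes, CPM on TMM-scaled library sizes, from 0) of the H2A gene (upper row) and the H2B gene (lower row) of 4 head-to-head pairs, by housing temperature and library, with a line at the mean of 4 libraries and open points for libraries 1, 7, 8 and 9. In the columns of Hist1h2ac and Hist2h2ac the H2A gene is higher at 29 °C than at 6 °C and the H2B gene has its mean at 29 °C below the mean at 6 °C.

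Features that the choice of members did not use were set beside the fold changes as a description. The 33 tested members with a stem-loop in the annotation had a median log2 fold change of 1.38 for 29 °C against 6 °C, and the 13 without one had 1.67. The 10 tested members with a poly(A) hexamer near the annotated end had a median of 0.77 and the other 36 had 1.58. The 29 tested members with at least 50% unique stretches had a median of 1.21, all 3 negative values were among them, and the 17 with less had 1.65. By position the medians were 1.78 in the proximal and 1.42 in the distal part of Hist1 and 0.89 in Hist2 (13, 26 and 5 tested members).

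The comparison of 29 °C with 22 °C asks how warm housing differs from housing at 22 °C. It shares its 29 °C libraries with the comparison above, so their values are not independent. No member was called by edgeR's quasi-likelihood test, and the share called among all 15006 genes was 0%. At an unadjusted p under 0.05, 7 members were higher and 2 lower, against 7.58% and 7.35% of all genes. DESeq2 called 1 member, Hist1h4h (1.19, adjusted p = 0.026), against 1.25% of all genes in that direction and 2.17% in both, and limma voom called 0 against 0.287%. The median log2 fold change was 0.805 over the 46 members and 0.00 over all genes, and 43 of 46 were positive, as were 49.6% of all genes. Hist1h2ak, Hist1h4h and Hist2h4 had every 29 °C library above every 22 °C library, 3 of 46 members (6.52%) against 3.89% of all genes, and 0 had the opposite order, against 3.79%.

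Hist2h4, an H4 gene of the Hist2 cluster, had 10.1, 13.8, 8.74 and 17.2 CPM at 6 °C (libraries 1 to 4), 5.999, 5.704, 18.7 and 14.6 CPM at 22 °C (libraries 5 to 8) and 25.9, 25.8, 21.1 and 19.3 CPM at 29 °C (libraries 9 to 12). Libraries 5 and 6 were the lowest of the 12 and library 7 was just under the lowest warm library (a log2 change of 1.02 with SE 0.35, adjusted p = 0.233). Hist1h4h had a log2 change of 1.18 with SE 0.32, adjusted p = 0.169, with the values given above. Hist2h2be had a log2 change of -1.02 with SE 0.32, adjusted p = 0.212, and Hist1h2bc a log2 change of -1.10 with SE 0.44, adjusted p = 0.29, and in both the groups overlapped. With the split term 8 members were called higher and 2 lower (1.56% and 1.88% of all genes), and the 2 were Hist1h2bc at -1.15 (adjusted p = 0.0356) and Hist2h2be at -1.14 (adjusted p = 0.0443). None was called with the split term when library 11 was left out, where 0.657% of all genes were called. In the 8 libraries without H2-Ea-ps counts, where 22 °C is libraries 5 and 6 alone, 30 members were called higher and 2 lower (9.35% and 7.74% of all genes), with a median of 1.97.

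The comparison of 6 °C with 22 °C asks how cold housing differs from housing at 22 °C, and shares libraries with both comparisons above. No member was called, and 5 of all genes were (0.0333%). At an unadjusted p under 0.05, 0 members were higher and 3 lower (6.80% and 5.11% of all genes), and DESeq2 and limma voom called 0 (1.19% and 0.0267%). The median was -0.64 over the 46 members tested and -0.02 over all genes, with 7 of 46 positive values against 47.5% of all genes, and it was -0.13 with the split term, which called 0 members and 0.367% of all genes. The 3 lowest p were those of Hist1h1a (a log2 change of -1.02 with SE 0.36, adjusted p = 0.309), Hist1h1b and Hist1h3a. Hist1h1a alone had every 6 °C library below every 22 °C library, 1 of 46 against 2.81% of all genes. In the 8 libraries without H2-Ea-ps counts the median was 0.82, of the opposite sign, and 6 members were called higher (4.48% of all genes): Hist1h1c, Hist1h3c, Hist1h4c, Hist1h4h, Hist2h4 and Hist4h4.

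The 22 °C group was split within itself. In 40 of the 46 members tested, libraries 5 and 6 were both below libraries 7 and 8, as in 33.2% of all genes, and in 2 members, Hist1h2bc and Hist2h2be, both were above, as in 30.0% of all genes. In 28 of 46 members each of libraries 10, 11 and 12 was above each of libraries 2 to 6, as in 9.57% of all genes; none of these libraries holds H2-Ea-ps counts. Of the 46, library 9 held the highest level of 33 and library 6 the lowest of 17. The share of counts in Gm26917, 0.667% and 0.605% in libraries 5 and 6 and 5.02% and 8.70% in libraries 7 and 8, moved with this split, as did H2-Ea-ps, and the part of either in the member levels was not tested.

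The machinery that makes and ends histone messages showed no call. Of 19 listed genes, which include Slbp, the stem-loop binding protein, Npat, and the U7 particle subunits Lsm10 and Lsm11, 18 were tested and 0 were called for 29 °C against 6 °C by edgeR. The median was 0.065, with 1 higher and 1 lower at an unadjusted p under 0.05; DESeq2 called 0 and limma voom 1 lower. Slbp stood at 8.77 ± 2.17 CPM at 6 °C, 9.91 ± 1.32 CPM at 22 °C and 8.34 ± 3.45 CPM at 29 °C and Npat at 13.2 ± 2.83 CPM at 6 °C, 16.7 ± 2.93 CPM at 22 °C and 15.1 ± 1.73 CPM at 29 °C, and neither passed (-0.07, SE 0.27, and 0.19, SE 0.18). Cdk2, the kinase that activates NPAT, had a log2 change of 0.55 with SE 0.25, adjusted p = 0.249, and Ncbp2, the small cap-binding subunit, a log2 change of -0.67 with SE 0.23, adjusted p = 0.125; both were called with the split term. Summed, the list ran from 431.9 to 583.9 CPM over the 12 libraries, a far narrower range than the members.

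Histone genes that are made outside S phase showed no call either. Of 10 tested of 11, 0 were called for 29 °C against 6 °C by edgeR, DESeq2 or limma voom, 1 was higher and 2 lower at an unadjusted p under 0.05, and the median was -0.155. H2afz, H3f3a and H3f3b, which code for replacement H2A.Z and H3.3, had log2 fold changes of -0.07, -0.35 and 0.25. H2afv, a second H2A.Z gene, had a log2 change of -0.46 with SE 0.17, adjusted p = 0.161. H1f0, the linker of resting cells, stood at 99.7 ± 16.5 CPM at 6 °C, 86.8 ± 15.9 CPM at 22 °C and 76.3 ± 8.79 CPM at 29 °C (a log2 change of -0.39 with SE 0.16, adjusted p = 0.212), and 29 °C was lower in the fit with the split term at -0.37 (adjusted p = 0.0414). H2afx, which codes for the DNA-damage variant H2A.X and is known to make a stem-loop message as well, had 10.5, 5.98, 2.78 and 5.52 CPM at 6 °C, 2.58, 1.94, 20.2 and 19.8 CPM at 22 °C and 27.2, 16.3, 15.7 and 14.7 CPM at 29 °C. Its high and low libraries were those of most members, with 5 and 6 lowest and 7 to 12 highest. The difference between 29 °C and 6 °C did not pass (a log2 change of 1.57 with SE 0.69, adjusted p = 0.245) and passed with the split term at 1.70 (adjusted p = 0.0133).

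Among 22 histone chaperones 0 were called for 29 °C against 6 °C by edgeR, DESeq2 or limma voom, 2 were higher at an unadjusted p under 0.05, and the median was 0.22. Asf1b and Chaf1a, which hand new H3 and H4 to replicating DNA, had the lowest p of the list (1.33 and 1.18, adjusted p = 0.153 and 0.171 by edgeR), and both passed with the split term. Of 33 DNA replication genes the helicase subunit Mcm6 rose (a log2 change of 1.00 with SE 0.23, adjusted p = 0.0377) and the thymidine kinase Tk1 fell (a log2 change of -1.36 with SE 0.27, adjusted p = 0.0249), with a median of 0.33 and 26 positive values. With the split term 10 replication genes were called higher and 1 lower, and DESeq2 and limma voom each called 3 higher and 1 lower. Of 20 mitosis genes Aurkb, the kinase of the chromosome passenger complex, rose (a log2 change of 2.04 with SE 0.42, adjusted p = 0.0282), the motor gene Kif11 came next (a log2 change of 1.69 with SE 0.42, adjusted p = 0.0522), and the median was 1.275 with 20 of 20 positive. With the split term 11 mitosis genes were called higher, with DESeq2 5 and with limma voom 3, and 0 lower in each. Leaving out 1 library ended the call of Mcm6 (library 2, 3, 4, 9, 10, 11 or 12), of Tk1 (4, 10, 11 or 12) and of Aurkb (2, 3, 4, 9, 10 or 11), with adjusted p up to 0.121, 0.0827 and 0.0872 over their alternatives. Mki67 stood at 35.3 ± 16.4 CPM at 6 °C, 79.2 ± 39.7 CPM at 22 °C and 91.9 ± 68.98 CPM at 29 °C and Top2a at 15.1 ± 10.7 CPM at 6 °C, 34.7 ± 23.7 CPM at 22 °C and 42.4 ± 28.1 CPM at 29 °C, and neither passed (1.38 and 1.48, adjusted p = 0.173 and 0.225). The mitosis list summed to 79.9 to 171.7 CPM at 6 °C, 113.2 to 404.9 CPM at 22 °C and 124.4 to 597.2 CPM at 29 °C.

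**Figure D5:**
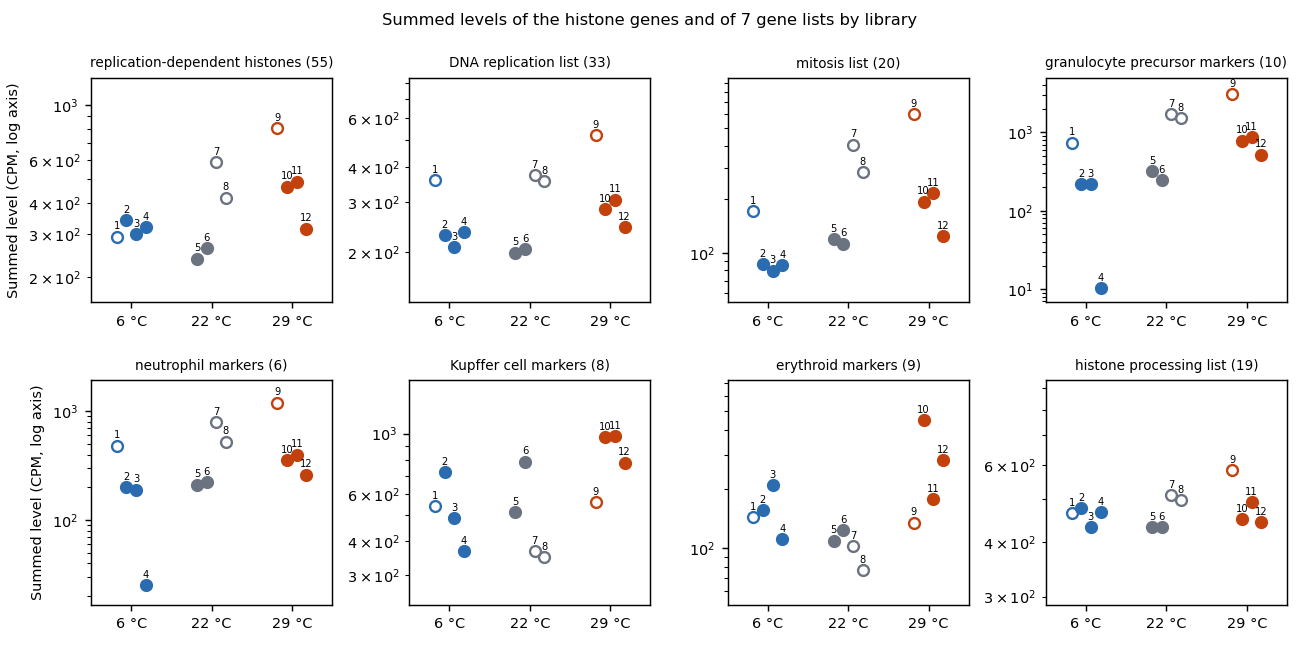
Summed level (vertical axes, CPM of the total count, log scale) of the 55 members and of 7 gene lists, with the number of genes in brackets, by housing temperature and library; open points are libraries 1, 7, 8 and 9. Library 9 is the highest for the members, the replication and mitosis lists and both granulocyte lists, and libraries 10 and 11 are the highest for the Kupffer cell markers.

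Markers of some other cell types had high sums in libraries where the members were high. The 10 granulocyte precursor markers (among them Elane, Mpo and Prtn3, none at 0 counts) summed to 10.3 to 740 CPM at 6 °C, 244 to 1699 CPM at 22 °C and 520 to 3087 CPM at 29 °C. All 10 had positive log2 fold changes for 29 °C against 6 °C, with a median of 2.125, and Chil3 was called by edgeR. At an unadjusted p under 0.05, 3 were higher. DESeq2 and limma voom each called 1 higher, and the split term 5, with 0 lower in each. Libraries 9 and 7 held the highest 2 sums both of this list and of the members. The orders also differed: library 4 held 10.3 CPM of these markers and 320.6 CPM of the members, and library 1 held 740 CPM and 292.7 CPM. The 6 neutrophil markers summed to 25.0 to 482.9 CPM at 6 °C and 262.2 to 1204 CPM at 29 °C (6 of 6 positive, 1 higher at an unadjusted p under 0.05, 0 called by edgeR, DESeq2 or limma voom). The 9 erythroid markers summed to 111.2 to 210.4 CPM at 6 °C, 76.9 to 123.2 CPM at 22 °C and 134.7 to 450.7 CPM at 29 °C, with 7 of 8 tested positive, 0 called by edgeR and 3 by DESeq2, and library 10 was highest. The 8 Kupffer cell markers summed to 368.4 to 723 CPM at 6 °C and 559.7 to 982.9 CPM at 29 °C, with 8 of 8 positive, 0 called by edgeR and 1 by limma voom. For T and NK cells 3 of 4 tested markers were positive, for B and plasma cells 5 of 6, for endothelial cells 5 of 5, for stellate cells 3 of 5, for cholangiocytes 3 of 4 and for intestine 2 of 2, and edgeR called 0 of these. At an unadjusted p under 0.05 there was 1 higher in each of the T and NK, B and plasma, endothelial and cholangiocyte lists; DESeq2 called 1 T and NK marker, limma voom 1 endothelial marker, and the split term 1 of each of these 2 lists. The part of any of these cells in the member levels was not tested.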

How the data were processed

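Gene counts of 12 mouse liver libraries were analysed. The authors deposited whole-number counts per gene. Listed without role in the submitters' processing notes are GRCm38, DESeq2 1.44.0, STAR 2.6.1a and bcl2fastq. How reads were counted, strand included, is not given in the sources used here. Groups came from the labels. Genes passing filterByExpr (15006) were fitted over all 12 libraries with edgeR 4.0.16 (R 4.3.3; TMM, robust quasi-likelihood, library sizes over the genes kept), with Benjamini-Hochberg adjustment at 0.05; the common biological coefficient of variation was 0.321 with 9 residual degrees of freedom. The steps were tested on simulated data. Alternatives were other scalings and filters, DESeq2 1.42.0, limma 3.58.1, fewer libraries, each library left out, and a split term. The limma fit, named limma voom in the text, used voom with a quality weight per library. The split term marks libraries in which H2-Ea-ps reached 1 CPM, a division made from the data and not the labels. The split term without library 11 was chosen after seeing the data. Of 55421 gene IDs, 54587 matched GENCODE vM21. Total counts per library of 7615585 to 19001126 limit the precision of low members.

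Members and gene lists were chosen with earlier results of these data known. Named genes were the members called, the 2 members per class with the highest level per kilobase, the 3 members with the lowest p per comparison, 10 genes named always, the 2 lowest p per list where available, and the 3 genes either side of the count rule. Hist1h2ac, Hist1h2ag, Hist1h2ah, Hist1h2bb, Hist1h2be, Hist1h2bj, Hist1h2bk, Hist1h2bn, Hist1h3b, Hist1h4j, Hist2h3c2, Hist3h2a and Hist4h4, and members listed as called in another fit, were named after their values were seen.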

Additional observations from a re-analysis of the deposited data

Results flagged for a closer look

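Among 96 groups of 4 libraries, 10 had 1 library far from the other 3 by Dixon's criterion. The criterion flags about 1 in 20 groups of independent, normally spread values. The groups here share libraries, some hold mostly 0 counts, and some genes were named after their values were seen. The 10 flags therefore cannot be set against that rate. Library 1 stood alone at 6 °C for Hist4h4 (15.12 CPM, against 0.7945 to 2.426 in the other 3), Hist2h2bb (12.46 CPM, against 2.509 to 2.781) and Hist1h2bb (2.448 CPM, against 1.329 to 1.43). Library 9 stood alone at 29 °C for Hist4h4 (33.8 CPM, against 4.134 to 6.369), Hist2h2bb (21.99 CPM, against 6.845 to 8.151) and Hist1h2ak (11.34 CPM, against 7.997 to 8.018). Hist1h2ad at 0.07201 CPM in library 1, Hist1h2ai at 0.07945 CPM in library 3 and Hist1h2ba at 0.2881 CPM in library 1 and 0.1543 CPM in library 9 stood apart only because the other 3 libraries of their group had 0 counts.

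Rows annotated as histone pseudogenes, which no comparison used, also held counts. Hist1h2al had 14, 9, 21 and 22 counts in libraries 1, 7, 8 and 9, the libraries with H2-Ea-ps counts, 1 in library 11 and 0 in the other 7. Hist3h2bb-ps had 11 counts in library 10 and at most 3 in any other.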

How the results depend on the processing

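For 29 °C against 6 °C, 2 members were called in the fit reported. The count was 1 with upper-quartile factors (2.66% of all genes called), 4 with no filter (1.34%) and 6 with limma voom (7.4%). It was 10 with DESeq2 (7.97%), 12 with only the 8 libraries compared (3.52%) and 21 with the split term (12.6%). With the split term without library 11 it was 11 (8.58%), and 16 in the libraries under 1 CPM of H2-Ea-ps (9.91%). Without the libraries low in Gm26917 it was 3 (0.85%), and 0 to 5 when each library was left out in turn (0.269% to 2.89%). The median log2 fold change of the members stayed within 1.235 to 1.624 when each library was left out. For 29 °C against 22 °C the count was 0 (0% of all genes called), 1 with DESeq2 (2.17%) and 10 with the split term (3.44%). It was 32 in the libraries under 1 CPM of H2-Ea-ps (17.1%) and 0 in each fit with 1 library left out (0% to 0.51%). The median was 0.805, 1.965 in those 8 libraries and 0.516 to 1.308 with 1 library left out. For 6 °C against 22 °C the count was 0 (0.0333% of all genes called), 6 in those 8 libraries (6.69%), and 0 in each fit with 1 library left out (0.0195% to 0.0458%). The median there was -0.639, turned to 0.816 in those 8 libraries, and was -0.93 to -0.07 with 1 library left out, and Hist4h4 turned to 3.51 (adjusted p = 0.0172); the 22 °C group is then libraries 5 and 6 alone. The summed level at 6 °C was 314.2 CPM, 255.3 CPM without Hist1h1c, and 304.6 to 321.3 CPM with 1 library left out. With 1 library left out the ranges were 307.8 to 424 CPM at 22 °C and 424.5 to 587.7 CPM at 29 °C. Over totals without mitochondrial genes, Gm26917 and the top 10 genes, the 6 °C level was 414.1 CPM. Such smaller totals raise the level of every library at every temperature. The 414.1 CPM is therefore not comparable with the 22 °C and 29 °C levels, which are over full totals.

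Over all genes, 379 were called for 29 °C against 6 °C, and 399 with upper-quartile factors, 383 with no filter, 506 with only the 8 libraries compared, 1196 with DESeq2, 1110 with limma voom, 1884 with the split term, 1504 in the 8 libraries under 1 CPM of H2-Ea-ps, 134 without the libraries low in Gm26917, 1305 with the split term without library 11, and 41 to 439 with 1 library left out. For 29 °C against 22 °C the counts were 0, 325, 43, 516, 2594 and 100 for the first, DESeq2, limma voom, split term, H2-Ea-ps subset and split-without-11 fits, 15 with no filter, 78 without library 9, 3 without library 7 and 0 without any other 1 library. For 6 °C against 22 °C they were 5, 178, 4, 55, 1015 and 36 in the same order, 3 with only the 8 libraries compared, 0 without the libraries low in Gm26917, and 3 to 7 with 1 library left out. The causes were not tested. Members near the low-count filter are limited by depth. No paired analysis was possible because the replicate numbers run from 1 to 12 and no number is shared between groups.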
